A study of Mus musculus with 6 samples.

Results

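The Ifi200 genes, also called the p200 or HIN-200 family, were represented on the array by 4 of 10698 genes and 6 of 16281 probes, of which Ifi202b had 3 and Ifi203, Ifi204 and Ifi211 had 1 each. They were taken as the probes for which the platform annotation names exactly 1 gene symbol, that symbol being one of the 4. The family was selected on its ratios between treated and untreated cells, several of them among the highest of the array, so those ratios are given below as a description, without a test. All 6 probes had a ratio on all 6 arrays, and 0 probes that name several symbols include one of the 4.

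RAW 264.7 cells, a mouse macrophage-like line derived from a tumour induced by Abelson leukaemia virus, were treated with lipopolysaccharide (LPS, 100 ng/ml), a cell wall component of Gram-negative bacteria, together with LPS-binding protein (100 pM), or were left untreated, both for 16 hours. Total RNA of treated and of untreated cells was hybridised together on each of 6 dual-colour arrays, with treated RNA in Cy5 on 3 arrays and in Cy3 on 3. Each orientation holds sets 1, 2 and 3. Nothing in the labels says that the sets are separate cultures, so the p-values may reflect technical spread alone.

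Every value is a log2 ratio of treated over untreated cells, in which 0 means no difference and 1 means 2-fold. The table does not state its direction. Cy5 over Cy3 was taken as likely, since on every array the labels give test RNA in Cy5 and control RNA in Cy3. Arrays of opposite orientation correlated between -0.852 and -0.622 over the probes, which bears on the dye swap and not on the direction. If the table were Cy3 over Cy5, every sign below would turn and the highest ratios would be the lowest. Ratios in the table end at 100-fold (log2 6.64), and 4 probes reach that limit, each on 1 array. Exact zeros, between 9.56% and 12.9% of an array, were taken as missing. A ratio gives no level, so abundance cannot be compared between genes, and the presence of macrophage markers could not be checked. Of 6 macrophage marker probes with a complete record, 4 were higher and 1 was lower in treated cells, between log2 -0.27 and 2.13. In RNA from a whole culture, more responding cells and more RNA per cell cannot be told apart.

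Ifi200 proteins are interferon-inducible regulators of the nucleus and cytosol. Most combine a PYRIN domain, which binds other PYRIN domains, with a HIN domain, which binds DNA. The family is best known in macrophages through Aim2, which detects cytosolic DNA and assembles an inflammasome with Pycard and Casp1, and through Ifi204, which like human IFI16 has been linked to interferon induction by foreign DNA through Sting1. The product of Ifi202b, p202, lacks the PYRIN domain, has been described as an inhibitor of Aim2 in mice, and differs widely in expression between mouse strains.

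The genes lie side by side on chromosome 1, and 9 family genes with a promoter window in RefSeq carry a common short element ahead of their start. Windows of 250 bases before to 50 bases after each annotated start were read from RefSeq, build GRCm38.p6, and searched on both strands for the interferon-stimulated response element (ISRE), written as GAAA, any 2 bases, then GAAA. It was found in 10 of 14 windows, belonging to 9 of 12 family genes, against 3.44% of all 32851 windows of this length. Some family windows overlap and others are nearly alike in sequence, so they are not independent cases to set against that share. The lines give the 9 forward-strand sites with 10 bases on either side, 5′ to 3′ along the gene, the element in capitals, to show how alike the surroundings are.
Ifi211: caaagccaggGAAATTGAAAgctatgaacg
Ifi203: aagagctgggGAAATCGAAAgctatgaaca
Mndal: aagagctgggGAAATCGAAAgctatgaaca
Ifi205: ccaggccaggGAAATTGAAAgctatgaaca
Ifi207: cctagccaggGAAATCGAAAattaagaaca
Ifi206: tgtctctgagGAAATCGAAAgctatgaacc
Ifi208: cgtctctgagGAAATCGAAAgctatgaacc
Ifi213: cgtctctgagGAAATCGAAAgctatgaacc
Ifi214: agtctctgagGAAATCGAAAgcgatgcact
Ifi203 and Ifi211, the pair of measured genes among them, both have the element close to the start, at 35 to 26 and at 37 to 28 bases before it. The letters were GAAATCGAAA in 7 of the 9 sites and GAAATTGAAA in 2, those of Ifi211 and Ifi205. Bases after the element were also shared, reading gctatgaac in the sites of Ifi203 and Ifi211. A match describes letters only and shows no binding.

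A whole window is given for each measured gene that has one in RefSeq, all but Ifi204, since they differ in this element. RefSeq gives Ifi203 a pair of starts. The window of the downstream start (chr1:173942443-173942742, minus strand) held the ISRE letters and is printed, and the other did not hold them. For Ifi211 the window is chr1:173912997-173913296 and for Ifi202b chr1:173982795-173983094, both on the minus strand. Capitals mark the ISRE letters in Ifi203 and Ifi211, and in Ifi202b they mark TTCNNNGAA (N for any base), the letters of the gamma-activated sequence, an element of interferon gamma-responsive genes.
Ifi203: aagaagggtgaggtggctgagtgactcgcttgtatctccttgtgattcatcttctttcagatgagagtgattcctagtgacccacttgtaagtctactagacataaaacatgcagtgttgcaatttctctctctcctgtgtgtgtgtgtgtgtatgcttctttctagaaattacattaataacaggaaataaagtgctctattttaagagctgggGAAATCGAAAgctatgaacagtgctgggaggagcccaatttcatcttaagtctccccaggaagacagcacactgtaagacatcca
Ifi211: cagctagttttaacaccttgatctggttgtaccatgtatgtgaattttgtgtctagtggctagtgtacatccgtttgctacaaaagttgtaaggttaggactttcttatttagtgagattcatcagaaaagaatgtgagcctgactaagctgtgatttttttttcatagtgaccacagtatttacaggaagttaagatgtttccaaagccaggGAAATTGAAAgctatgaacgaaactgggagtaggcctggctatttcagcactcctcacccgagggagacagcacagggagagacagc
Ifi202b: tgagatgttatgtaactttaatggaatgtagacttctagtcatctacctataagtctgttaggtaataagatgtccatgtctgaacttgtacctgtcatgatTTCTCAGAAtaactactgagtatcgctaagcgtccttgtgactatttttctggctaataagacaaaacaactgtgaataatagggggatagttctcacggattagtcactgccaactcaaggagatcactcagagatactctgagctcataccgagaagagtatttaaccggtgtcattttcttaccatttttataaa
The Ifi202b window held no ISRE letters, which says only that these letters are not in this window of the reference strain. It held TTCNNNGAA once, at 148 to 140 bases before the start. It was the only one of the 14 family windows with these letters, against 8.30% of all windows. A count of 1 in 14 is near that share, so nothing is read from it. The TATA letters, TATAAA, were found in 7 of the 14 family windows, of 7 genes, and in 13.6% of all windows. Of the 4 member windows 1 held them, that of Ifi202b, where they lay after the start and overlapped each other on the 2 strands. A form of the kappaB element, GGG, any 2 bases, then TTTCC, was in 0 of the 14 family windows and in 1.63% of all.

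In cells given LPS and its binding protein, 5 of the 6 probes stood above 0 on all 6 arrays, and the probe of Ifi202b designed on NM_008327 stood near 0. The mean ratios ran from at least 57.5-fold for Ifi202b through 16.8-fold for Ifi204 and 4.24-fold for Ifi203 to 3.01-fold for Ifi211. Over the 13418 probes with a complete record of ratios, 16.9% were called higher and 13.9% lower in treated cells at an adjusted p under 0.05 in limma, with a median of -0.01. Nothing is read from that background for the members, because this comparison chose them.

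**Figure D1:**
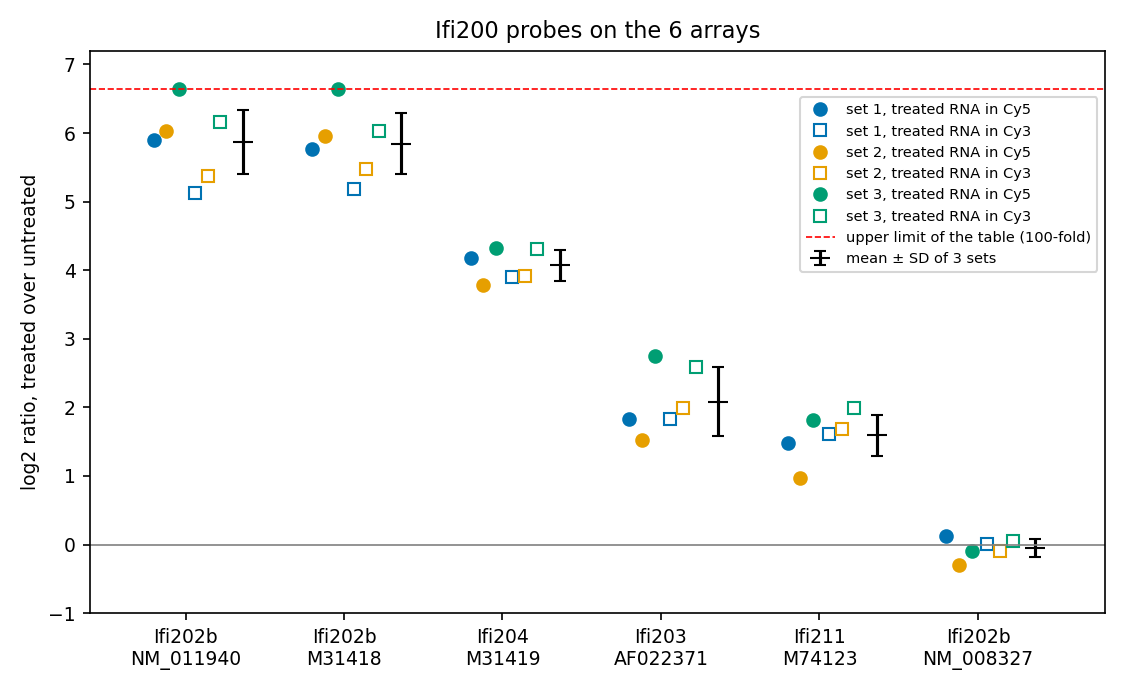
Log2 ratio of treated over untreated cells (y axis) for the 6 Ifi200 probes (x axis, with gene and sequence accession). Filled circles are arrays with treated RNA in Cy5, open squares those with treated RNA in Cy3, colours are sets, and black marks are means ± SD of 3 sets. Both high Ifi202b probes touch the limit of the table in set 3, Ifi204 lies between 3.78 and 4.32, and the NM_008327 probe straddles 0.

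Ifi202b gave the highest mean ratios of the array, as deposited, on 2 of its 3 probes. The probe designed on M31418 read 5.77, 5.96 and 6.64 on the arrays of sets 1, 2 and 3 with treated RNA in Cy5, and 5.18, 5.48 and 6.03 on those with treated RNA in Cy3. The probe designed on NM_011940 read 5.90, 6.03 and 6.64 with treated RNA in Cy5, and 5.13, 5.37 and 6.16 with treated RNA in Cy3. Set 3 was highest in both orientations on both probes, and its array with treated RNA in Cy5 stood at the 100-fold limit, so that value is a lower bound. Means were 5.84 ± 0.45 for M31418 and 5.87 ± 0.47 for NM_011940 (SD, n = 3 sets), at least 57.5-fold and at least 58.7-fold. Their means were the 2 highest of 13418 probes, and the order between them cannot be read past the limit. On the 5 arrays below the limit the 2 probes differed by at most 0.14 on the log2 scale.

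The remaining probe of Ifi202b, designed on NM_008327, read 0.12, -0.30 and -0.09 with treated RNA in Cy5 and 0.00, -0.10 and 0.05 with treated RNA in Cy3. Values fell on both sides of 0, with 3 arrays above and 3 below, and the mean was -0.05 ± 0.13 (SD, n = 3 sets). It lay 5.13 to 6.33 below the other probes of the gene on the 5 arrays where those were below the limit, and at least 6.73 below them on the set 3 array with treated RNA in Cy5. The RefSeq gene table lists NM_008327 and NM_011940 as transcripts of Ifi202b, which carries Ifi202a among its synonyms. Probe sequences were not analysed here, so what this probe detects was not tested.

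Ifi204 had the second-highest ratios of the 4 genes and the most even ones among the probes that stood above 0. It read 4.18, 3.78 and 4.32 with treated RNA in Cy5 and 3.90, 3.92 and 4.30 with treated RNA in Cy3. The lowest array was thus still 13.8-fold, and the mean was 4.07 ± 0.23 (SD, n = 3 sets), or 16.8-fold. It ranked 22 of 13418 probes.

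Ifi203, which encodes a nuclear protein of the family, read 1.83, 1.52 and 2.75 with treated RNA in Cy5 and 1.84, 1.99 and 2.58 with treated RNA in Cy3. Both arrays of set 3 stood above all 4 arrays of sets 1 and 2. The mean was 2.09 ± 0.50 (SD, n = 3 sets), or 4.24-fold, and the probe ranked 142.

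Ifi211, listed in RefSeq also under the names Mnda and Ifi205b, read 1.47, 0.97 and 1.82 with treated RNA in Cy5 and 1.61, 1.68 and 1.99 with treated RNA in Cy3. Its set 2 array with treated RNA in Cy5 was the lowest, at 1.95-fold. The mean was 1.59 ± 0.30 (SD, n = 3 sets), or 3.01-fold, and the probe ranked 233.

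The order of the ratios was Ifi202b on its 2 high probes, Ifi204, Ifi203 and Ifi211. On every array the high Ifi202b probes stood above Ifi204, and Ifi204 above Ifi203. Ifi203 also stood above Ifi211 on all 6 arrays, by 0.23 to 0.93. Between sets these neighbours overlapped, at 1.84, 1.76 and 2.67 for Ifi203 against 1.54, 1.32 and 1.91 for Ifi211 in sets 1, 2 and 3. Members of this family resemble each other in sequence, so a probe may bind more than 1 of them, and which copy gave a ratio is uncertain.

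The choice of the genes did not use the difference between sets, which was tested with a separate contrast. Set 3 was singled out with earlier results of these data known, and the p-values take no account of that choice. Set 3 stood above the mean of sets 1 and 2 on all 6 probes in estimate, and above both of those sets on 5. The high Ifi202b probes among these read nearly alike. In limma 1 of the 6 passed an adjusted p of 0.05, against 2.16% of all probes. That was the M31418 probe of Ifi202b, by 0.74 ± 0.07 (SE, adjusted p = 0.0385), with set means of 6.34 in set 3 and of 5.47 and 5.72 in sets 1 and 2. The NM_011940 probe gave 0.79 ± 0.09 (adjusted p = 0.0531). Both contain the capped value, so these differences are lower bounds. Their SE and p-values also rest on the capped value and are not bounds, and no set contrast was fitted without that array. Quantile normalization, which gives each array the same set of values and so holds the top probes together, reduced the M31418 difference to 0.22 (adjusted p = 0.715).

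Ifi203 had an estimate of 0.87 ± 0.16 (SE) and did not pass (adjusted p = 0.123). It cannot be ranked against the Ifi202b bounds. Ifi211 was at 0.48 ± 0.16 (adjusted p = 0.270), Ifi204 at 0.37 ± 0.12 (adjusted p = 0.256) and the NM_008327 probe at 0.05 ± 0.10 (adjusted p = 0.877). Over all probes the median difference was -0.00, and over the 153 probes at least 4-fold higher in treated cells it was 0.08. Of the 290 probes called in this contrast, 288 were higher in set 3. Among them were Ifnb1, encoding interferon beta, by 1.26 ± 0.13 (SE, adjusted p = 0.0424), and Casp1 by 2.23 ± 0.12 (adjusted p = 0.0135). These were the only ones called of 29 interferon pathway probes (median difference -0.08) and of 18 inflammasome probes (median -0.05), lists described below. Of 26 cytosolic DNA sensing probes 3 were called (median 0.03), and of 26 probes of reported partners 0 (median 0.01). The part of any of these genes in the Ifi202b difference was not tested. The error here is the spread between the 2 arrays of a set, not between cultures.

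A dye effect, the part of a ratio that follows the dye and not the treatment, was called for 0 of the 6 probes, and 0 had an unadjusted p under 0.05. In limma 0.335% of all probes were called, and 2189 of 13418 had an unadjusted p under 0.05. A count of 0 among 6 probes is therefore not read as absence of a dye effect. The fit has no set term, so differences between sets stay in its error. The high Ifi202b probes had estimates of 0.28 ± 0.14 for M31418 (SE, adjusted p = 0.356) and 0.32 ± 0.15 for NM_011940 (adjusted p = 0.327). Both contain the capped value in Cy5. In every set both probes read higher with treated RNA in Cy5 than in Cy3. With the set number as a replicate block the adjusted p was 0.153 for each. Under quantile normalization their estimates turned to -0.18 and -0.12, and Ifi204 stood at -0.37 (adjusted p = 0.152). Mean ratios of the pair were at least 6.12 ± 0.46 and 6.19 ± 0.40 with treated RNA in Cy5, against 5.56 ± 0.43 and 5.56 ± 0.54 with treated RNA in Cy3 (SD, n = 3 arrays). Ifi211 leaned the other way, at -0.17 ± 0.11 (SE, adjusted p = 0.464), and the estimates of Ifi203, Ifi204 and the NM_008327 probe lay between -0.05 and 0.03.

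**Figure D2:**
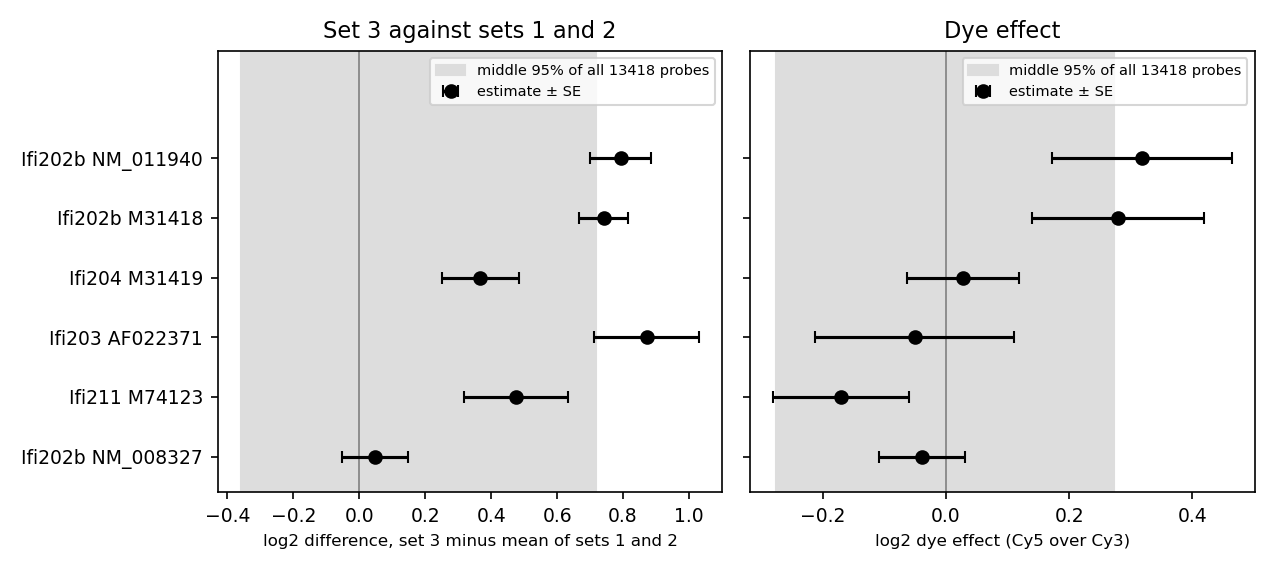
Estimates ± SE for the 6 Ifi200 probes on the log2 scale, for set 3 minus the mean of sets 1 and 2 (left) and for the dye effect (right). The grey band holds the middle 95% of all 13418 probes. In the set contrast both high Ifi202b probes (0.74 and 0.79) and Ifi203 (0.87) lie beyond the band, which ends at 0.72. In the dye panel both high Ifi202b probes (0.28 and 0.32) also lie beyond the band, which there ends at 0.27.

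The cluster holds 13 protein-coding family genes in RefSeq order on chromosome 1, and 4 of them, the members, had a probe. Aim2, Ifi205, Ifi206, Ifi207, Ifi208, Ifi209, Ifi213, Ifi214 and Mndal had no probe of that symbol alone, so no ratio is given for them. Ifi211, Ifi203 and Ifi202b lie next to each other in that order, and Ifi204 lies 2 genes from Ifi211, with Mndal between them. Among the 10 genes on either side, 4 had a probe. Ackr1, a chemokine-binding receptor known as Duffy antigen, rose on its probe with a complete record, to 1.02 ± 0.09 (SD, n = 3, limma adjusted p = 0.000122). Its other probe had a ratio on 4 arrays, between -0.55 and 0.03. Its neighbour Cadm3, an adhesion molecule, was at 0.14 ± 0.15 (adjusted p = 0.292). Fcer1a, the alpha chain of the IgE receptor, was at -0.02 ± 0.06 (adjusted p = 0.859) and the olfactory receptor Olfr16 at -0.07 ± 0.15 (adjusted p = 0.618). All 4 lie on the Aim2 side, and the genes on the Ifi205 side had no probe of their symbol alone.

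**Figure D3:**
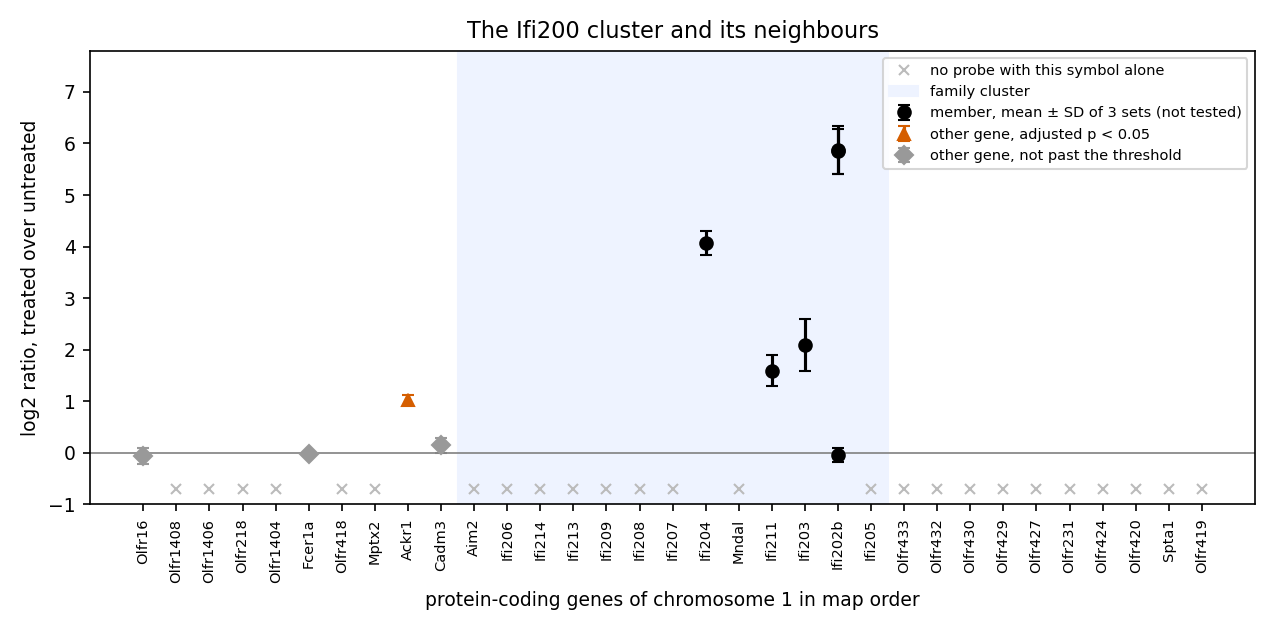
Mean log2 ratio of treated over untreated cells ± SD of 3 sets (y axis) for protein-coding genes in map order (x axis), with the family cluster shaded and crosses for genes with no probe of that symbol alone. Members stand between -0.05 and 5.87, Ackr1 at 1.02, and the other 3 measured neighbours between -0.07 and 0.14.

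Likeness to the members was measured as the root mean square distance over the 6 ratios to each of 11633 other probes naming 1 gene, on the values as deposited with the capped array included. These are the ratios that chose the members. The distance depends largely on the size of the mean ratio, so it is a description and says nothing on shared regulation. The nearest to the M31418 probe of Ifi202b were the chemokine Ccl2 (0.69), Urah (0.72) and the cytokine Il6 (0.83), and the same 3 genes were nearest to the NM_011940 probe. No other probe lay within 0.5 of either, where 42 did so for Ifi203, 130 for Ifi211 and 8 for Ifi204. Ifi204 was closest to Ifit2 (0.35), an interferon-induced antiviral gene, then to Gm9706 (0.40) and to Ptgs2 (0.41), the inducible prostaglandin synthase. Ifi203 was closest to Klra2 (0.26), a lectin-like receptor gene, Il1f6 (0.28), an interleukin 1 family cytokine, and Mdfic (0.31). Ifi211 was closest to Bcar3 (0.16), Brca2 (0.17), a DNA repair gene, and Nmi (0.20), which binds STAT proteins. Around the NM_008327 probe 9009 probes lay within 0.5, led by Timmdc1 (0.04), A930016O22Rik (0.06) and Sh3gl1 (0.06).

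Type I interferon acts on these genes through its receptor, JAK kinases and STAT and IRF factors. Of 29 probes of 20 measured genes of this pathway, 23 rose and 2 fell, with a median of 0.52. The rises came from 16 genes and the falls from 1. Over all probes 16.9% rose and 13.9% fell, with a median of -0.01. Ifnb1 rose to 3.07 ± 0.81 (SD, n = 3, adjusted p = 0.000207), at 3.01, 2.29 and 3.91 in sets 1, 2 and 3. Usp18, an interferon-induced inhibitor of that receptor, rose to 2.71 ± 0.30 (adjusted p = 1.03e-05), and Irf7, which amplifies interferon transcription, to 2.46 ± 0.14 (adjusted p = 3.24e-06). Both probes of Ifngr1, a chain of the interferon gamma receptor, fell, to -0.37 ± 0.12 (adjusted p = 0.0129) and -0.36 ± 0.09 (adjusted p = 0.0114). The call of the first ended on the arrays with treated RNA in Cy3 alone (-0.04, adjusted p = 0.788) and when exact zeros counted as ratios (adjusted p = 0.0659), and that of the second when only arrays with treated RNA in Cy5 were used (-0.35, adjusted p = 0.0590).

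Cytosolic DNA sensing, the pathway in which Ifi204 has been placed, gave 9 of 26 probes up and 4 down, with a median of 0.02, against 16.9% up and 13.9% down over all probes. The share of falls was close to that background. Zbp1, a sensor of Z-form nucleic acid, rose to 3.69 ± 0.32 (adjusted p = 3.11e-06). Ikbke, a kinase that activates IRF factors, rose to 2.17 ± 0.13 on one probe (adjusted p = 5.24e-06), while its other probe was at -0.07 (adjusted p = 0.563). The subunit Rnaseh2c fell to -1.02 ± 0.10 (adjusted p = 0.000130) and the chromatin protein Hmgb2 to -0.98 ± 0.32 (adjusted p = 0.00119), a call that ended with exact zeros kept (adjusted p = 0.0662). Sting1, the adaptor itself, was at 0.19 ± 0.08 (adjusted p = 0.105).

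Of 18 inflammasome probes from 11 genes, 13 rose and 0 fell, with a median of 1.12, against 16.9% and 13.9% over all probes. The rises came from 7 genes, of which Il1b, Il1a, Il18, Casp4 and Naip2 rose on more than 1 probe. These repeats weigh on the count and the median. Without set 2, 1 probe fell. Of 3 probes of Il1b, the cytokine that Casp1 matures, 2 led the list, at 5.05 ± 0.48 (adjusted p = 2.94e-06) and 4.55 ± 0.59 (adjusted p = 1.02e-05). The first is a lower bound, since it reached the 100-fold limit on 1 array. The third Il1b probe was at 4.28, below both probes of Il1a (4.47 and 4.36). Casp1 rose to 2.05 ± 1.29 (adjusted p = 0.00853), with 3.54 in set 3 against 1.28 and 1.34 in sets 1 and 2. Without set 3 it stood at 1.31. It missed the threshold when the variance was moderated robustly (adjusted p = 0.162) and with exact zeros kept (adjusted p = 0.164). Pycard, the adaptor between Aim2 and Casp1, was at -0.02 ± 0.10 (adjusted p = 0.890), and on the arrays with treated RNA in Cy3 alone it fell to -0.36 (adjusted p = 0.0226).

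Genes whose products have been reported to bind p202 or p204, among them the retinoblastoma family, E2F, AP-1, NF-kappaB and ID proteins, gave 5 of 26 probes up and 4 down, with a median of -0.11. Both shares were close to those of all probes, 16.9% up and 13.9% down. Myc rose to 3.47 ± 0.46 (adjusted p = 1.35e-05), and Fos rose to 0.85 ± 0.23 on one probe (adjusted p = 0.000896, and 0.0505 with exact zeros kept) and stood at 0.21 ± 0.11 on the other (adjusted p = 0.0941). Both probes of Id2, an inhibitor of basic helix-loop-helix factors, fell, to -1.60 ± 0.17 (adjusted p = 2.97e-05) and -1.55 ± 0.11 (adjusted p = 2.10e-05). Among genes often used as constant, Actb was at 0.15 ± 0.22 (adjusted p = 0.341), and the Gapdh probes with a complete record did not pass, with adjusted p-values of 0.0767 and above.

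**Figure D4:**
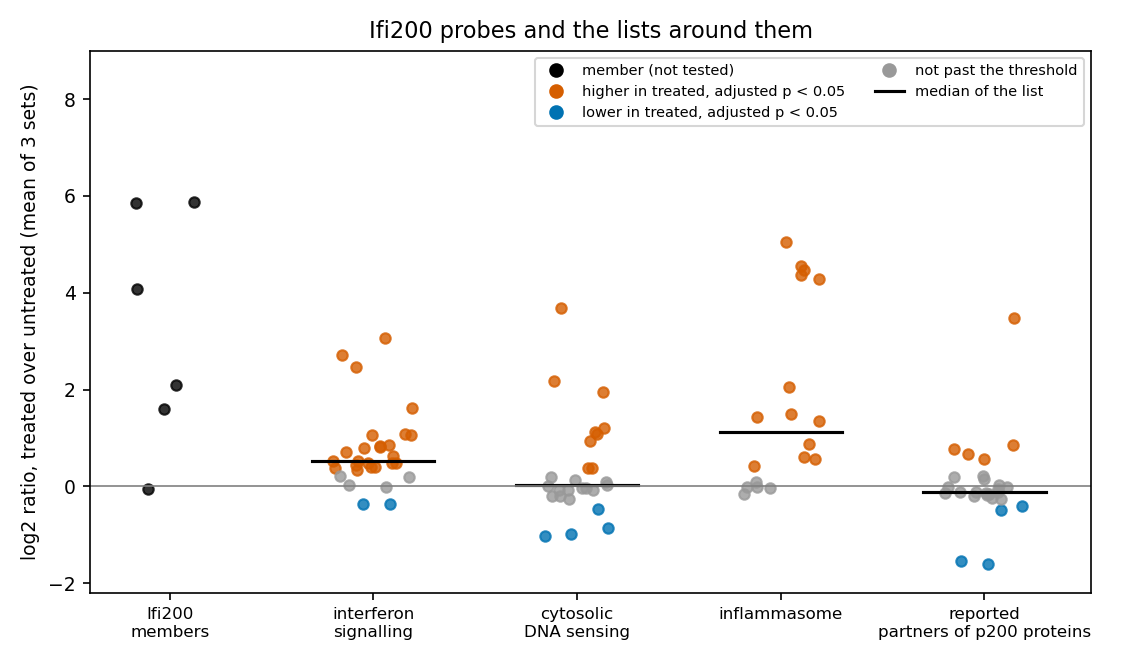
Mean log2 ratio of treated over untreated cells (y axis) for each probe of the members and of 4 gene lists (x axis), with colours for the limma call and a bar at each list's median. The high Ifi202b probes stand above 5.8, and the medians are 0.52 for interferon signalling, 0.02 for cytosolic DNA sensing, 1.12 for the inflammasome and -0.11 for reported partners.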

How the data were processed

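Per the labels, each of 6 dual-colour arrays carried treated and untreated RNA. The deposited log2 values are ratios of the 2 channels, as read from signs and range. Scanner, background correction and normalization: not given in the sources used here. Ratios were turned to treated over untreated by the dyes in the titles, exact zeros were set to missing, and probes complete on 6 arrays were used.

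The members and lists were chosen with earlier results of these data known. Both orientations of a set were averaged, and the 3 set means were tested against 0 in limma 3.58.1 (lmFit and eBayes, two-sided, R 4.3.3). P-values were adjusted by Benjamini-Hochberg over 13418 probes. Dye effects came from 6 arrays with treatment and dye terms, and the set contrast from 6 arrays with set and dye terms. The main treatment, dye and set fits were tested on simulated data with independent noise on each array, without the 100-fold limit or exact zeros. The alternatives were not simulated. Names came from the platform annotation (13738 probes with 1 symbol), gene order and promoter windows from RefSeq (GRCm38.p6). RefSeq held a promoter window for 3 of the 4 members. From each list the text names the called probes with the 2 largest rises and 2 largest falls, with Ifnb1, Irf7, Casp1, Pycard, Sting1, Actb and Gapdh. Of these Sting1 was chosen after its value was seen. Alternatives covered the zeros, filter, scaling, dye orientation, moderation, set averaging and each set left out. Precision is limited by the number of arrays.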

Additional observations from a re-analysis of the deposited data

Results flagged for a closer look

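The M31418 probe of Ifi202b differed between sets under the same treatment. It stood 0.74 ± 0.07 (SE) higher on the log2 scale in set 3 than in sets 1 and 2 (limma adjusted p = 0.0385), and both arrays of set 3 were above all 4 others. The value of one set 3 array lies at the 100-fold limit of the table. The SE and p-value rest on that capped value, and no set contrast was fitted without that array. The p-value also takes no account of singling out set 3.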

How the results depend on the processing

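No member's ratio moved by more than the SD of its sets under the alternatives that keep all sets, leaving out the capped array (chosen after seeing the data) included. The M31418 probe ran from 5.60 to 6.03 with a set left out and was 5.71 without the capped array; the NM_008327 probe ran from -0.11 to 0.02. With exact zeros kept as ratios, 2159 probes in place of 4129 changed, 39 in place of 60 list probes, and 29 in place of 45 had a dye effect. Interferon signalling then gave 14 rises and the partner list 1. The count of dye effects was 89 with a ratio on at least 4 arrays, 14 to 23 with a set left out, and 3 with the set number as a replicate block. Quantile normalization ended the set 3 call of the M31418 probe (0.22, adjusted p = 0.715). Taking the 6 arrays as separate gave 4535 changed probes, and the set number as a replicate block 4590; both gave 7 falls in DNA sensing in place of 4. With the arrays separate the M28233 probe of Ifngr1 missed the threshold (adjusted p = 0.0532). Arrays of one set number deviated together at r = 0.188, 0.0498 and 0.544 in sets 1, 2 and 3, and not every array correlated best with its own number, so the numbers were not shown to pair the arrays.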
